A study of Mus musculus with 8 samples.

Results

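The 7 genes described here restrain the growth kinase mTOR and were examined in chromatin immunoprecipitation sequencing (ChIP-seq) of mouse liver for the glucocorticoid receptor (GR), the nuclear receptor that corticosterone activates. They were Ddit4, Sesn1, Sesn2, Sesn3, Deptor, Tsc1 and Tsc2, and each was represented by the GR sites centred within 50 kb of each gene start. Overlapping peaks of 6 GR libraries were merged into 51431 sites, of which 64 lay in these windows, and none lay near a second gene of the set. Of the 64 sites, 16 belonged to Ddit4, 15 to Sesn2, 13 to Deptor, 7 each to Tsc1 and Tsc2, and 3 each to Sesn1 and Sesn3. All libraries came from livers of male C57BL/6J mice on regular chow. The 2 ctrl. libraries were from mice fed only at night (night-restricted feeding), the 2 cal. res. libraries from mice under caloric restriction, and the 2 CORT libraries from mice fed only at night and given corticosterone, the main glucocorticoid of mice. The labels name no vehicle injection for ctrl., so injection and hormone cannot be told apart. A FOXO1 peak list from 2 merged cal. res. libraries was set beside them. FOXO1 is a forkhead transcription factor that insulin signalling keeps out of the nucleus.

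The kinase mTOR, in mTOR complex 1, drives protein synthesis and cell growth and holds back autophagy when nutrients and insulin are plentiful. The TSC complex, built on TSC1 and TSC2, keeps the small GTPase Rheb inactive and so keeps mTOR complex 1 off. REDD1, the product of Ddit4, acts upstream of the TSC complex and is a classical glucocorticoid-induced inhibitor of mTOR, sestrins bind the GATOR2 complex and so block amino acid signals to mTOR, and DEPTOR binds mTOR itself. Sestrin genes are also known targets of FOXO factors, which are active in fasting.

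The 6 lists differed in length, from 12458 distinct peak regions in ctrl. replicate 2 to 39136 in CORT replicate 2. The ctrl. replicate 2 list was the shortest, whereas that of ctrl. replicate 1 held 36234 regions, so the ctrl. libraries stood apart from each other. Rank within a list moved with list length: over the 8097 sites with a peak in all 6 libraries, the median percentile was 61.3 in ctrl. replicate 2, 85.7 in ctrl. replicate 1 and 87.1 in CORT replicate 2. Library names in the labels follow 2 styles, one shared by ctrl. replicate 2 and both cal. res. libraries, the other by ctrl. replicate 1 and both CORT libraries, so that naming style and group cannot be told apart between cal. res. and CORT. Within the first style, ctrl. replicate 2 is the only ctrl. library, and within the second, ctrl. replicate 1 is the only one. What the style stands for is not known here, and the sample titles tie neither ctrl. library to a treatment. The study describes the libraries of a group as 2 biological replicates, without saying how many animals each came from, and p-values measure the spread between these libraries. As a check of the tissue, 6 of 6 hepatocyte markers found (Alb, Apoa1, Ttr, Tat, Serpina1a and Apob) had a site within 50 kb with a peak in all 6 libraries, against 0 of 3 muscle genes and 0 of 3 neuronal genes, while both T cell genes, Cd3e and Cd3d, also had such a site.

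The sequence under the GR summits is given for 8 sites near Ddit4, Sesn1, Sesn2, Deptor and Tsc1. All but the Tsc1 promoter were chosen because they were the best ranked of their gene with a motif. The Tsc1 promoter, without a motif, is shown for its low rank under caloric restriction. Each window is 200 bases of GRCm38.p6 (RefSeq), plus strand, centred on the summit of the highest-ranked GR peak, and capitals mark matches on either strand to the motifs searched. Those motifs were the GR element (GRE, GNACA and TGTNC separated by 3 bases), the GR hexamer AGAACA, which can lie inside a GRE, the forkhead motif TGTTTAC, the STAT motif TTCNNNGAA and the C/EBP motif TTGCNNAA.
Ddit4, 30.6 kb downstream, chr10:59921263-59921462: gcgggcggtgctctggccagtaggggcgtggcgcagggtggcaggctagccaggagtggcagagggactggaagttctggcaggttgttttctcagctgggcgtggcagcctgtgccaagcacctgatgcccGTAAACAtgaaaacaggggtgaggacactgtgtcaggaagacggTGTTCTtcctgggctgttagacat
Ddit4, 22.5 kb upstream, chr10:59974202-59974401: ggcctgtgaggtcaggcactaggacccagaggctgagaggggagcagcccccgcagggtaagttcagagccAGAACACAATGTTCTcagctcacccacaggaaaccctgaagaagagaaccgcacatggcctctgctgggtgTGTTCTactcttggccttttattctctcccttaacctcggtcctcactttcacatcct
Sesn1, 0.336 kb downstream, chr10:41810541-41810740: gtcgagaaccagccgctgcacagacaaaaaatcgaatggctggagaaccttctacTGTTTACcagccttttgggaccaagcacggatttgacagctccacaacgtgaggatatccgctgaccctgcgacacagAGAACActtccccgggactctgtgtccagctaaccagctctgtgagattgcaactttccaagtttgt
Sesn2, 18.7 kb downstream, chr4:132491884-132492083: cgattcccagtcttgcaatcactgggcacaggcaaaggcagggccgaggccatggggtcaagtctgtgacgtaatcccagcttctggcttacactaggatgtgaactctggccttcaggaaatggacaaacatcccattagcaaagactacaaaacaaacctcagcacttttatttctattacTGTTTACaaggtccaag
Sesn2, 27.3 kb downstream, chr4:132482947-132483146: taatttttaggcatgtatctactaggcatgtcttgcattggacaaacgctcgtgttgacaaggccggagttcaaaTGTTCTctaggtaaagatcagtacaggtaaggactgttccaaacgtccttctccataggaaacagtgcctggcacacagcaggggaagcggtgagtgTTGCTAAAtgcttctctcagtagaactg
Deptor, 8.66 kb downstream, chr15:55121101-55121300: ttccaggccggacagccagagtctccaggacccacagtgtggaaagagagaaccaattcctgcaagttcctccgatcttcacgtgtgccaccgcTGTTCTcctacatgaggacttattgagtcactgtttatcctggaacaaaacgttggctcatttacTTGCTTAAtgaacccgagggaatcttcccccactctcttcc
Deptor, 20.9 kb downstream, chr15:55133059-55133258: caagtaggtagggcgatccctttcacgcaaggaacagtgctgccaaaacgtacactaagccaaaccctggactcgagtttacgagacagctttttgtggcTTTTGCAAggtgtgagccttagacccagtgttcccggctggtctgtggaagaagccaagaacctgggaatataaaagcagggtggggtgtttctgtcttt
Tsc1, 0.064 kb downstream, chr2:28641003-28641202: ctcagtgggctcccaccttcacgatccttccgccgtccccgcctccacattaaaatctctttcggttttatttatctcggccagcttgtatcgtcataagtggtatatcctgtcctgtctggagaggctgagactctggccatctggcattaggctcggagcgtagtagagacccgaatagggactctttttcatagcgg

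The window 22.5 kb upstream of Ddit4 held the only full GRE printed, at bases 73 to 85, with hexamers overlapping it at both ends and another hexamer at bases 143 to 148. The window 30.6 kb downstream of Ddit4 held a forkhead match at bases 133 to 139 and a hexamer at bases 177 to 182, with the FOXO1 summit at base 66. In the Sesn1 promoter window the forkhead match at bases 56 to 62 lay 8 bp from the FOXO1 summit, and a hexamer followed at bases 134 to 139. The Tsc1 promoter window held none of the 5 motifs. Over all 64 sites, 3 held a GRE (4.69%, against 1.89% of 51428 sites searched) and all 3 lay near Ddit4, at 3 of its 16 sites. Hexamers were in 15 sites (23.4%, against 18.4% of all sites), forkhead matches in 9 (14.1%, against 5.19%), STAT matches in 4 (6.25%, against 8.16%) and C/EBP matches in 9 (14.1%, against 15.1%). Of the 20 sites that overlapped FOXO1, 6 held a forkhead match, and of the 44 others, 3 did. The share over all sites was not split by FOXO1 overlap, so these 2 counts have no background. In the 6, the match lay 7 to 81 bp from the FOXO1 summit. The other 14 FOXO1 sites held none in this window.

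**Figure D1:**
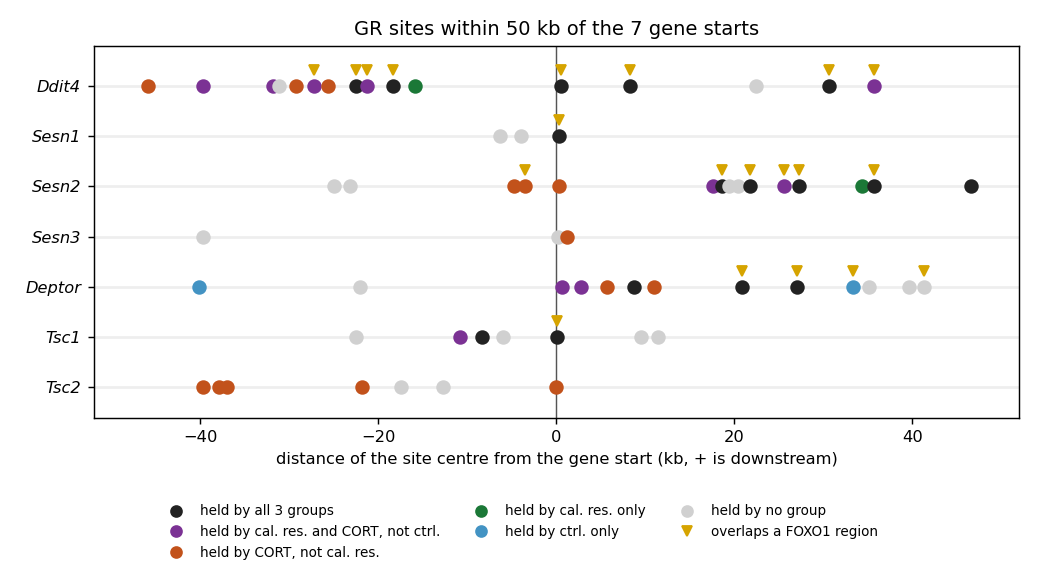
Positions of the 64 GR sites (circles) relative to the start of each gene, in kb along the direction of transcription, one row per gene. Colour gives the groups in which both libraries had a peak, and triangles mark the 20 sites that overlap a FOXO1 region. Ddit4, Sesn2 and Deptor hold 44 of the 64 sites and 18 of the 20 triangles, and no site of Sesn3 or Tsc2 has a triangle.

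GR peaks near these genes were most numerous in CORT, the libraries fell in the same order as over all sites, and the ctrl. libraries bracketed much of the difference. Peaks covered 47 of the 64 sites in ctrl. replicate 1 and 21 in ctrl. replicate 2, 38 and 32 in the cal. res. libraries, and 43 and 58 in the CORT libraries. Over all 51431 sites the shares with a peak, in the same sequence of libraries, were 67.6% and 22.3%, 40.3% and 33.7%, and 53.8% and 73.6%, against 73.4% and 32.8%, 59.4% and 50%, and 67.2% and 90.6% of the 64. The cal. res. counts lay between the ctrl. counts, and both CORT counts exceeded both cal. res. counts. The mean differed by 1 site between cal. res. and ctrl. (p = 1), by 16.5 between CORT and ctrl. (p = 0.667) and by 15.5 between CORT and cal. res. (p = 0.33), in two-sided exact permutation tests over 2 against 2 libraries, which cannot give a p below 0.33. Within a naming style, where each group is set against 1 ctrl. library, cal. res. exceeded ctrl. replicate 2 by 14 sites and CORT exceeded ctrl. replicate 1 by 3.5. With ctrl. replicate 2 left out, cal. res. had 12 fewer sites than ctrl., a value of -12. Over the 3 groups together, the exact permutation p was 0.467, with 0.0667 the smallest possible. The 6 pairwise tests of this family, 3 of site numbers and 3 of percentiles given further on, all had a Benjamini-Hochberg adjusted p of 1 by exact permutation. With 12458 regions taken from every library, the differences in the same order were 1.5, 6.5 and 5 sites. Read totals were not analysed here.

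**Figure D2:**
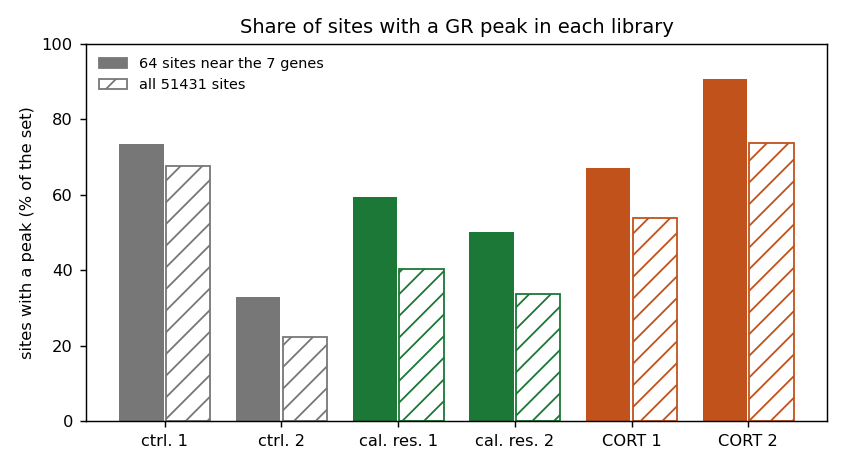
Share of sites with a GR peak in each of the 6 libraries (%), for the 64 sites near the 7 genes (filled bars) and for all 51431 sites (hatched bars). The filled bars run from 32.8% in ctrl. replicate 2 to 90.6% in CORT replicate 2, and in each library the filled bar is above the hatched one, which runs from 22.3% to 73.6%.

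A site counted as held by a group if it carried a peak in each of the group's libraries. Ctrl. held 20 of the 64 sites (31.2%), against 21.4% of all sites. Cal. res. held 28 (43.8%, against 27.9%) and CORT held 40 (62.5%, against 43.7%). All 3 groups held 16 (25%, against 15.7%). A further 10 sites were held by cal. res. and CORT without ctrl. (15.6%, against 9.13%) and 12 by CORT alone (18.8%, against 15.2%). Cal. res. alone held 2 (3.12%, against 2.39%), ctrl. alone 2 (against 1.4%), ctrl. with CORT 2 (against 3.59%) and ctrl. with cal. res. 0 (against 0.649%), while 20 were held by no group (31.2%, against 51.9%). Cal. res. or CORT but not ctrl. held 24 sites (37.5%, against 26.7%). Of these 24, 17 were present in ctrl. replicate 1 (70.8%, against 81% of all such sites), 1 in ctrl. replicate 2 (4.17%, against 1.38%), and 6 in neither (25%, against 17.6%). Absence from ctrl. thus mostly meant absence from the shortest list, here as over all sites.

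Peak strength was compared by rank, because fold enrichment is scaled within each library. The percentile of a site is its rank by fold enrichment among that library's regions, as a share of their number. Tied regions take their mean rank, and 100 is the strongest peak of the list. Both cal. res. libraries ranked above both ctrl. libraries at 9 of 54 sites with a peak in any of these libraries (16.7%, against 6.27% of all such sites), and below both at 4 (7.41%, against 9.25%), with no peak counted as below any peak. Both CORT libraries ranked above both ctrl. libraries at 25 of 64 sites (39.1%, against 16.5%) and below at 2 (3.12%, against 1.86%). CORT ranked above cal. res. at 23 of 61 sites (37.7%, against 29.9%) and below at 4 (6.56%, against 3.7%). Ddit4 accounted for 6 of the 9 sites higher in cal. res. and for 11 of the 25 higher in CORT than in ctrl. The comparisons with ctrl. share the ctrl. libraries.

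Over the 16 sites held by all 3 groups, the mean percentile was 82.4 and 49.2 for the ctrl. libraries, 68.2 and 74.2 for cal. res., and 76.1 and 88.1 for CORT. The ctrl. values enclosed those of cal. res., and CORT lay above cal. res. in both libraries. The difference was 5.42 percentile points between cal. res. and ctrl. (p = 1), 16.3 between CORT and ctrl. (p = 0.667) and 10.9 between CORT and cal. res. (p = 0.33, exact permutation, two-sided). Without ctrl. replicate 2, 26 sites were common to the remaining libraries. Over these 26, the difference was -9.30 between cal. res. and ctrl. and 2.84 between CORT and ctrl. Over the 16 sites, ctrl. replicate 1 (82.4) lay above both cal. res. libraries and between the CORT libraries. Without ctrl. replicate 1, still over 16 sites, the differences were 22.0 and 33.0. With 12458 regions per library, 10 sites were common. Over these 10, cal. res. exceeded ctrl. by 22.4 points and CORT exceeded ctrl. by 16.8. The difference between CORT and cal. res. was then -5.61. To set list length aside, a ranking added after the data were seen ordered only the 8097 sites held by all 3 groups within each library. On that scale both cal. res. libraries ranked above both ctrl. libraries at 8 of the 16 sites (50%, against 21% of the 8097) and below at 3 (18.8%, against 21%). CORT ranked above ctrl. at 6 (37.5%, against 19.2%) and below at 3 (18.8%, against 19.6%), and above cal. res. at 5 (31.2%, against 25.6%) and below at 7 (43.8%, against 29.3%). All 5 Ddit4 sites of this kind were among the 8 that ranked higher in cal. res., and 4 of them were among the 6 that ranked higher in CORT than in ctrl. Both counts include the Ddit4 promoter run, where ctrl. replicate 2 had only a 246 bp region with its summit 1.02 kb inside the gene.

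Ddit4 (ENSMUSG00000020108, chr10:59949669-59951834, minus strand) had the most GR sites of the 7 genes and the site with the highest mean percentile. With 16 sites it exceeded 96.2% of the 21897 protein-coding genes, and no other protein-coding gene starts within the window. Ctrl. held 5 of the 16 sites, cal. res. 11 and CORT 13. Of the 16 sites, 13 were intergenic, 2 lay in introns of the neighbouring gene Anapc16 and 1 was the promoter. Sites 25.7 kb or more upstream were nearest to the start of Ascc1, farther out, and 9 of the 16 were nearest to Ddit4.

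The site with the highest mean percentile lay 18.4 kb upstream of Ddit4, at chr10:59969599-59970878 between genes. Its percentile was 90.7 and 96 for ctrl., 99.2 and 99.1 for cal. res., and 99 and 99 for CORT. Both cal. res. and both CORT libraries were above both ctrl. libraries, in each case near the top of the list. Fold enrichment there, not comparable between libraries, was 13.7 and 11.4 for ctrl., 49.8 and 39.3 for cal. res., and 39.8 and 43.7 for CORT.

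The site 30.6 kb downstream, at chr10:59920712-59921700 in intergenic sequence, ranked above the middle of the ctrl. lists and near the top of the others. Its percentile was 70.6 and 66.7 for ctrl., 98.2 and 98.6 for cal. res., and 99.7 and 98.9 for CORT. No library of cal. res. or CORT overlapped ctrl. Fold enrichment, not comparable between libraries, was 7.89 and 5.29 for ctrl., 33 and 32 for cal. res., and 58.2 and 42.1 for CORT. Ranked only among the 8097 sites held by all 3 groups, it stood at 22 and 55.8 for ctrl., 95.2 and 96.8 for cal. res., and 98.8 and 94.9 for CORT. The order between ctrl. and the other groups was the same on this scale, whereas cal. res. and CORT overlapped. It was also the strongest FOXO1 region near any of the 7 genes, at the 99.5 percentile of the FOXO1 list, with the FOXO1 and GR summits 35 bp apart.

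At 27.2 kb upstream (chr10:59978327-59979730, intergenic), ctrl. replicate 1 had a peak at percentile 89 and ctrl. replicate 2 had none. The cal. res. libraries stood at 98.2 and 97.7 and the CORT libraries at 92.8 and 98.9, so that cal. res. and CORT overlapped. Its FOXO1 region stood at percentile 88.6, and its window held a GRE, with a forkhead match 7 bp from the FOXO1 summit. At 22.5 kb upstream (chr10:59973787-59974912, intergenic), percentiles were 74.7 and 83.4 for ctrl., 96 and 96.7 for cal. res., and 81.9 and 95.3 for CORT. Here cal. res. lay above both other groups, and CORT overlapped ctrl. This is the site whose window showed the GRE flanked by hexamers.

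The Ddit4 promoter and the site 8.3 kb downstream, named after their values were seen, ranked higher in CORT than in cal. res. Downstream (chr10:59942897-59944177, intergenic), the percentile was 57 and 18.5 for ctrl., 55.4 and 77.1 for cal. res., and 98.3 and 95 for CORT. CORT stood above all other libraries and cal. res. overlapped ctrl., whereas among sites held by all 3 groups cal. res. (26.6 and 57.7) lay above ctrl. (10.4 and 11.9). The promoter site was a merged run of 4951 bp (chr10:59948853-59953803), with percentiles of 80.9 and 0.751 for ctrl., 80.6 and 72.5 for cal. res., and 90.5 and 98 for CORT. Among sites held by all 3 groups, cal. res. (56.7 and 51.3) lay above ctrl. (38.7 and 0.519) here too. In ctrl. replicate 2 its only region was 246 bp long with a summit 1.02 kb inside the gene, while the strongest summit of each other library lay within 1 kb of the start, so that ctrl. replicate 2 had no peak at the promoter proper. Of the 10 other Ddit4 sites, 8 were held by cal. res. or CORT, none by ctrl., and the 2 others were in CORT replicate 2 alone. Over all 16 Ddit4 sites, 9 were held by cal. res. or CORT without ctrl., against 26.7% of all sites. Of these 9, 7 had a peak in ctrl. replicate 1 (81% of all such sites), so they were absent only from the shortest list.

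**Figure D3:**
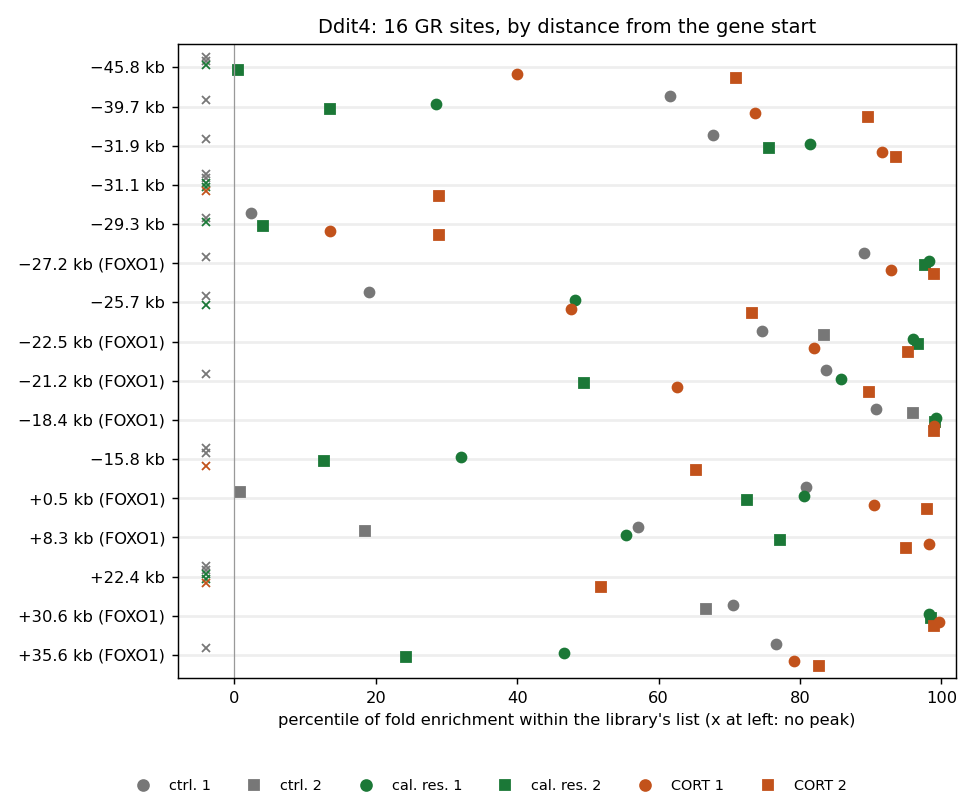
Percentile of fold enrichment of the 16 Ddit4 sites in each GR library (horizontal axis, 0 to 100), by distance from the gene start, with crosses at the left for no peak and FOXO1 overlap noted. The sites 18.4 kb upstream and 30.6 kb downstream have all 4 cal. res. and CORT points at 98.2 or above, and at 30.6 kb the ctrl. points are at 66.7 and 70.6.

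Sesn2 (ENSMUSG00000028893, chr4:132492032-132510501, minus strand), encoding the stress-induced sestrin 2, had 15 sites, more than 95.3% of genes. Its strong sites lay beyond the gene's far end, and those from 25.5 kb on were nearest to Med18, a Mediator subunit gene, so that the gene served by them is not given by position. At 35.7 kb downstream (chr4:132474389-132475131, intergenic), the percentile was 93.3 and 74.6 for ctrl., 94.8 and 93.7 for cal. res., and 89.8 and 95.8 for CORT. Cal. res. lay just above both ctrl. libraries, and CORT overlapped both groups, but among sites held by all 3 groups CORT (68.7 and 81.5) lay below cal. res. (86.3 and 86.3). At 18.7 kb downstream (chr4:132491299-132492388), just past the gene, the percentile was 98.6 and 39.4 for ctrl., 90.9 and 82.9 for cal. res., and 82.8 and 91.7 for CORT. The ctrl. libraries enclosed all others there, as they did among sites held by all 3 groups, where CORT (51.9 and 64.9) lay below cal. res. (77 and 66.3). At 27.3 kb (chr4:132482749-132483714, intergenic) the values were 90.9 and 10.7 for ctrl., 94 and 88.3 for cal. res., and 74.9 and 91.6 for CORT. At 21.8 kb (chr4:132488438-132489043, intergenic) they were 87.1 and 25.9, 60.9 and 57.5, and 35 and 66.4. At both, ctrl. replicate 1 stood far above ctrl. replicate 2, and the groups overlapped on this scale. They separated in part among sites held by all 3 groups. At 27.3 kb cal. res. (84.2 and 75.7) then lay above ctrl. (65 and 6.49) and CORT (37.4 and 64.5), and at 21.8 kb CORT (4.83 and 14.7) lay below ctrl. (53.8 and 17.4) and cal. res. (31.4 and 34.8). All 4 of these sites overlapped FOXO1. The 4 sites in the gene and its upstream flank that were held by any group had lower mean percentiles over the 6 libraries, 24.1 to 43.3. The lowest was the promoter site, held by CORT alone at 43.7 and 70.9, with a ctrl. replicate 1 peak at 29.9.

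Sesn1 (ENSMUSG00000038332, chr10:41809935-41908424, plus strand), encoding the p53-induced sestrin 1, had 3 sites, and 1 was held by any group. That site was its promoter (chr10:41809613-41810928), which also holds a start of the divergent gene Cep57l1. The percentile was 89 and 75.8 for ctrl., 67.1 and 69.7 for cal. res., and 89.9 and 94.9 for CORT. The order was cal. res. below ctrl. below CORT, with no overlap, and the FOXO1 region there stood at percentile 70.8. Among sites held by all 3 groups the same order was found, with 59.4 and 66.7, 37.7 and 47.7, and 69 and 77.4.

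Sesn3 (ENSMUSG00000032009, chr9:14275067-14333101, plus strand), a known FOXO target, had no FOXO1 region within 50 kb and no site held by cal. res. Its promoter site 1.19 kb inside the start (chr9:14275800-14276712) stood at 57.5 and 14.8 in ctrl., had no peak in cal. res. replicate 1 and 5.59 in cal. res. replicate 2, and stood at 84.9 and 79.7 in CORT. The groups did not overlap, in the same order as at Sesn1. The other 2 sites were in 1 and 2 lists.

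Deptor (ENSMUSG00000022419, chr15:55112317-55259271, plus strand) had 13 sites, 11 of them at or within the gene. Its strongest site lay in an intron 8.66 kb downstream of the start (chr15:55120364-55121596), at 90 and 77.7 for ctrl., 89.8 and 94 for cal. res., and 78.1 and 91.1 for CORT. The 3 groups overlapped on this scale, whereas among sites held by all 3 groups cal. res. (74.8 and 87) lay above ctrl. (62.4 and 69.1) and CORT (42.6 and 62.8). This site did not overlap FOXO1, and its window held a hexamer at the summit and a C/EBP match. At 20.9 kb (chr15:55132617-55133793), by the start of another Deptor transcript, the percentile was 90.5 and 42.4, 82.8 and 90.5, and 76.9 and 94.1, with the groups overlapping, as they also did among sites held by all 3 groups. At 27 kb (chr15:55138976-55139749, intron) it was 79.7 and 52, 17.8 and 77.7, and 36.6 and 86.5, a wide spread in all groups, which overlapped on both scales. The promoter site (chr15:55112117-55113821) had no peak in ctrl. replicate 2 and stood at 63.9 in ctrl. replicate 1, with 81.9 and 33.4 for cal. res. and 87 and 89.4 for CORT. CORT lay above the other 4 libraries. At the site 33.4 kb downstream, ctrl. (43.8 and 20.2) was above cal. res. (4.94 and no peak) and above CORT (no peak and 13.5), although FOXO1 stood at percentile 88.9 there.

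Tsc1 (ENSMUSG00000026812, chr2:28641228-28691167, plus strand), which stabilises TSC2, had 7 sites, and its promoter showed the largest drop under caloric restriction among the sites held by all 3 groups. At the promoter (chr2:28640693-28641890) the percentile was 90.6 and 82 for ctrl., 24.2 and 32.7 for cal. res., and 78.9 and 80.7 for CORT. Both cal. res. libraries lay below the other 4, and CORT lay just below ctrl. Fold enrichment, not comparable between libraries, was 13.6 and 6.51 for ctrl., 4.23 and 4.22 for cal. res., and 11.2 and 10.2 for CORT. Ranked among sites held by all 3 groups, the values were 64.1 and 74.6, 7.24 and 15.5, and 44 and 34.6, in the same order. The FOXO1 region there was weak, at percentile 2.83. At 10.8 kb upstream (chr2:28629971-28630825, intergenic, nearest to Gfi1b), ctrl. replicate 1 stood at 83.1, ctrl. replicate 2 had no peak, cal. res. stood at 72.4 and 50.8, and CORT at 73.5 and 72.3. At 8.32 kb upstream (chr2:28632630-28633179, intergenic) the values were 68 and 10.3, 9.22 and 33.7, and 31 and 51.8, with all groups overlapping, although among sites held by all 3 groups CORT (4.09 and 6.24) lay just below ctrl. (19.1 and 6.29).

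Tsc2 (ENSMUSG00000002496, chr17:24595816-24632630, minus strand), the GTPase-activating subunit of the complex, had 7 sites, none held by ctrl. or cal. res. and none overlapping FOXO1. All lay at or upstream of the start, and all 7 were nearer to the start of another gene. CORT held 5. At the promoter, shared with the divergent DNA repair gene Nthl1 (chr17:24632499-24632926), no ctrl. or cal. res. library had a peak, and the CORT libraries stood at 16.6 and 63.2. At 39.7 kb upstream (chr17:24672110-24672597, an intron of Zfp598), CORT stood at 68 and 44.5 and cal. res. replicate 1 at 19, with no peak in the other 3 libraries. At 37.1 kb upstream (chr17:24669353-24670013, by a Zfp598 start), CORT stood at 33 and 30.6, cal. res. replicate 1 at 25.9 and ctrl. replicate 2 at 21.4. At 21.9 kb upstream (chr17:24654187-24654817, intergenic), CORT stood at 8.27 and 54.1 and ctrl. replicate 1 at 47.7, so that CORT and ctrl. overlapped. No library reached percentile 70 at these 4 sites.

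**Figure D4:**
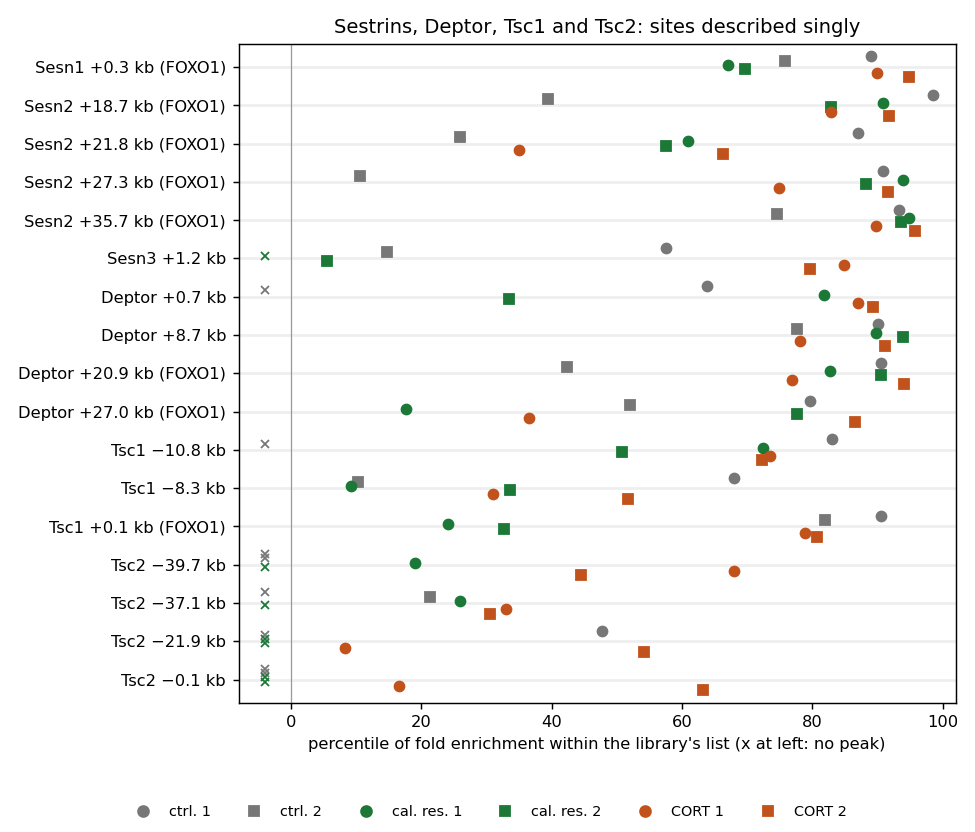
Percentile of fold enrichment in each GR library (horizontal axis, 0 to 100) for the sites of the sestrins, Deptor, Tsc1 and Tsc2 described singly, with crosses at the left for no peak. At the Tsc1 promoter the 2 cal. res. points are at 24.2 and 32.7 and the other 4 between 78.9 and 90.6. At the Sesn1 promoter the cal. res. points are the lowest, at 67.1 and 69.7.

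FOXO1 overlapped 20 of the 64 sites (31.2%, against 13.9% of all sites), 8 at Ddit4, 6 at Sesn2, 4 at Deptor, 1 at Sesn1 and 1 at Tsc1. The 8 at Ddit4 exceeded the number at 99.9% of protein-coding genes and the 6 at Sesn2 that at 99.5%. Among the 16 sites held by all 3 groups, 13 overlapped FOXO1 (81.2%, against 50.7% of the 8097). The sites overlapping FOXO1 ranked higher in GR than the others in each library: the medians over sites with a peak were 82.3 against 44.1 in ctrl. replicate 1, 47.2 against 17.2 in ctrl. replicate 2, 82.8 against 40.2 and 77.7 against 33.4 for cal. res., and 79.2 against 41.9 and 91.7 against 51.8 for CORT. The same medians over all sites are not given here, so this ranking cannot be called particular to these genes. The study reports stronger GR signal under caloric restriction at sites shared with FOXO1 than at GR sites without it. All 20 FOXO1 regions within 50 kb of the 7 gene starts overlapped a GR site, as did 93.6% of the 8068 FOXO1 regions in the list. FOXO1 was mapped only under caloric restriction, so its change with diet cannot be read from these data.

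Beside 51 other genes of the mTOR pathway, the 7 genes had a higher median number of sites. Ddit4, Sesn2 and Deptor stood highest, with 16, 15 and 13 sites, whereas Sesn1 and Sesn3 had 3 each. The median was 7 sites for the 7 genes, 5 for the pathway genes and 3 for all protein-coding genes. In the same order, the median number overlapping FOXO1 was 1, 1 and 0, and the mean was 2.86, 0.843 and 0.568. Ddit4, with 8 such sites, and Sesn2, with 6, raised the mean of the 7 genes. At least 1 site held by all 3 groups was found at 5 of the 7 genes (71.4%), 33 of the 51 (64.7%) and 37.9% of all genes. The pathway genes with the most sites that all 3 groups held and FOXO1 overlapped were Stk11, encoding the kinase LKB1 that activates AMPK, with 4, Rhebl1, a Rheb relative, with 3, and Ulk1, the autophagy-initiating kinase, Eif4ebp2, a translation repressor, Nprl2, a GATOR1 subunit, and Lamtor1, the lysosomal anchor of Ragulator, with 2 each. Ddit4 had 5, Sesn2 4, Deptor 2, and Sesn1 and Tsc1 1 each. Mtor itself had 3 sites, 1 of them held by all 3 groups, and Ddit4l, the relative of Ddit4, had 1 site, held by CORT alone.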

How the data were processed

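GR ChIP-seq peaks of 6 mouse liver libraries and 1 FOXO1 peak list were used, with groups taken from the titles in the labels. The study's methods state that the authors mapped reads to mm10 with BWA, removed duplicate and multiply mapped reads and called peaks with MACS2, each GR library on its own and FOXO1 on 2 merged libraries; use of an input control is not given in the sources used here. Fold enrichment, as deposited, is the ratio by which the pileup at a summit exceeds the background around it and can be compared only within a list, and p-values and q-values were deposited in −log10 form. The largest q-value was 0.0998 in the GR lists and 9.84e-06 in the FOXO1 list, so FOXO1 was called more strictly.

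Rows with the same interval were reduced to the summit of highest fold enrichment, regions sharing a base were merged over the 6 GR lists into sites, and a site took the percentile of its highest region in each library. Gene starts and annotation came from GENCODE M21 (basic set), a promoter being within 1 kb of an annotated transcript start. Sequence came from GRCm38.p6, and the 3 sites on unplaced sequence were not searched for motifs. The 7 genes, the pathway and marker lists and the tests were chosen with earlier results of these data known. Sites described singly were, for each gene, up to 4 sites held by a group or overlapping FOXO1 with the highest mean percentile (no peak as 0). Outside this rule, values were also given for the Ddit4 promoter, the site 8.3 kb downstream of Ddit4, and the Sesn2 promoter. The Deptor site 33.4 kb downstream was likewise outside it. Pathway genes named were the 6 with the most sites held by all 3 groups and overlapping FOXO1. Differences between groups were tested over libraries with exact permutation tests, and 19 alternative settings were run. Replicate numbers did not pair the libraries. Depth was not analysed here, so list length stands in its place and no counting interval is given. The functions were tested on simulated data. Python 3.11.15, NumPy 2.4.6, pandas 2.3.3, pysam 0.24.0 and matplotlib 3.10.9 were used.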

Additional observations from a re-analysis of the deposited data

How the results depend on the processing

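The 3 differences between groups in number of sites and the 3 in mean percentile stayed short of significance in every setting, which 2 libraries a group impose. The sign of CORT minus ctrl. was positive in every setting for both measures, and that of CORT minus cal. res. was positive throughout for number of sites. In percentile, however, the sites compared numbered 26 without ctrl. replicate 2 and 10 with equal numbers of regions. Over the main 16 sites, the ctrl. replicate 1 mean (82.4) lay between the CORT means (76.1 and 88.1). The mean percentile of CORT minus cal. res. (10.9) turned to -5.61 with equal numbers of regions and to -0.0625 when ranked among sites common to all 6 libraries. The difference in number of sites between cal. res. and ctrl. (1) became 0 with a window of 25 kb, -2 with 100 kb and -0.5 with nearest starts only, and ranged from -12 to 14 with single libraries left out; in percentile (5.42) that range was -9.30 to 22.0. The low ends are without ctrl. replicate 2. Leaving out single libraries gave 4.94 to 16.9 for CORT minus cal. res. and 2.84 to 33.0 for CORT minus ctrl. in percentile, and 11 to 24 and 3.5 to 29.5 in number of sites. The total of 64 sites itself became 40 with 25 kb, 96 with 100 kb and 47 with a fold enrichment of at least 5. It became 41 with equal numbers of regions and 37 with nearest starts only, and the counts that follow are out of these totals. Sites held by ctrl. (20) numbered 13 with 25 kb, 31 with 100 kb, 7 with a fold enrichment of at least 5, and 20 to 47 with single libraries left out. Sites held by cal. res. (28) numbered 17 with 25 kb. Sites held by CORT (40) numbered 23 with equal numbers of regions and 24 with 25 kb or with nearest starts only. Sites held by all 3 groups (16) numbered 10 with equal numbers of regions, 6 with a fold enrichment of at least 5, and 16 to 26 with single libraries left out, the highest without ctrl. replicate 2. Sites overlapping FOXO1 (20) numbered 11 with 25 kb and 12 with the stronger 50% of FOXO1 rows. The replicate numbers share only a number: the same-numbered libraries correlated at -0.0468 (cal. res. and ctrl.), -0.125 (CORT and ctrl.) and 0.0737 (CORT and cal. res.). With the replicate block the differences were unchanged (1, 16.5 and 15.5 sites; 5.42, 16.3 and 10.9 points) and the exact permutation p was 1, 1 and 0.5 for each measure, 0.5 being the smallest possible. Ranking among sites common to all 6 libraries was applied to counts of non-overlapping sites after seeing the data. Read depth was not analysed, which limits all absences of a peak.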
